A study of Citrullus lanatus with 6 samples.

Results

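Single-exon genes of watermelon are described here in leaves of drought-stressed and well-watered plants. A gene was taken as single-exon when the span from its start to its end in the Charleston Gray annotation equalled its annotated gene length, so that no intron lies within the model. The rule used no measured value and found 2501 of 18861 annotated genes (13.3%), leaving 16360 intron-containing genes; another 881 models outside the annotation were not classed. Leaf RNA came from plants of the cultivar Crimson Sweet, 89 days old, sampled 8 days after the start of the treatment (8 DAT). Drought-stressed plants (3 libraries) were held at 35 ± 5% soil moisture by withholding water and control plants (3 libraries) at 95 ± 5%, with 1 library for each independent plant. The question put here concerns genes with no intron in their model. It is whether they had another level, another drought change or another spread between plants than intron-containing genes of like length.

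A plant gene without introns needs no splicing, and its transcript can be exported once it is capped and polyadenylated. Several large plant families consist mostly of such genes, among them ethylene-responsive factors (ERF), 9-cis-epoxycarotenoid dioxygenases (NCED, the rate-limiting enzymes of abscisic acid synthesis), calmodulin-like proteins, SAUR proteins and many pentatricopeptide repeat (PPR) proteins, which bind organellar RNA. Introns are known to raise the expression of many plant genes, while transcripts that respond fast to stress often come from genes with few introns.

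The libraries held 22196375, 22351455 and 21143377 counts in drought replicates 1 to 3 and 20990361, 17907062 and 21852732 counts in control replicates 1 to 3. Control replicate 2 stood apart. Chlorophyll a-b binding protein genes, which mark leaf tissue and encode the light-harvesting antenna, were among the most abundant single-exon genes in every library: their 4 described members summed to 4762 to 7234 CPM (counts scaled to a common library total) in drought libraries, against 35226, 7988 and 26438 CPM in control replicates 1, 2 and 3. Control replicate 2 thus lay near the drought libraries for these genes. In whole-leaf RNA, fewer cells of a type and less RNA per cell cannot be told apart. No described single-exon gene carried a phloem name, and the 1 with a pollen name stayed at 0.08 to 0.41 CPM in drought and 0.34 to 3.27 CPM in control. Descriptions come only from the study's lists of changed genes, so a phloem or pollen gene outside those lists could not be seen here. The 2 seed-named members are given with the dehydrins.

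Single-exon models were short and carried coding sequence only. Their length ran from 153 to 6081 bases with a median of 768, against 1517 for intron-containing genes, and all 2501 lengths (100%) were whole numbers of codons, as were 51.1% of the intron-containing lengths. Levels per length of the 2 classes are therefore set side by side also for intron-containing genes of whole-codon length alone. An intron in an untranslated region would lie outside such models, so single-exon here describes the model and not the whole transcript. Single-exon genes lay on every chromosome, from 9.38% of the annotated genes of chromosome 5 to 15.5% of chromosome 1. They made up 16.8% of the genes on the unplaced sequences that the annotation numbers as chromosome 0. Another gene model overlapped 83 of them (3.32%), and since the library kit keeps no strand, reads of such pairs cannot be told apart.

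Single-exon genes took up a smaller share of the drought libraries. The share was 8.00, 7.82 and 8.34% of counts in drought libraries, against 10.7, 9.88 and 8.99% in control libraries, with every drought library below every control library. The chlorophyll a-b binding members alone held 0.768, 0.526 and 0.721% in drought and 3.12, 0.917 and 2.15% in control. Without them the share was 7.23, 7.29 and 7.62% in drought and 7.57, 8.96 and 6.85% in control, and the groups overlapped. At least 1 count was found for 83.9 to 85.9% of members in each drought library and for 84.7 to 87.1% in each control library, and 161 members had no count in any drought library, against 118 in any control library.

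**Figure D1:**
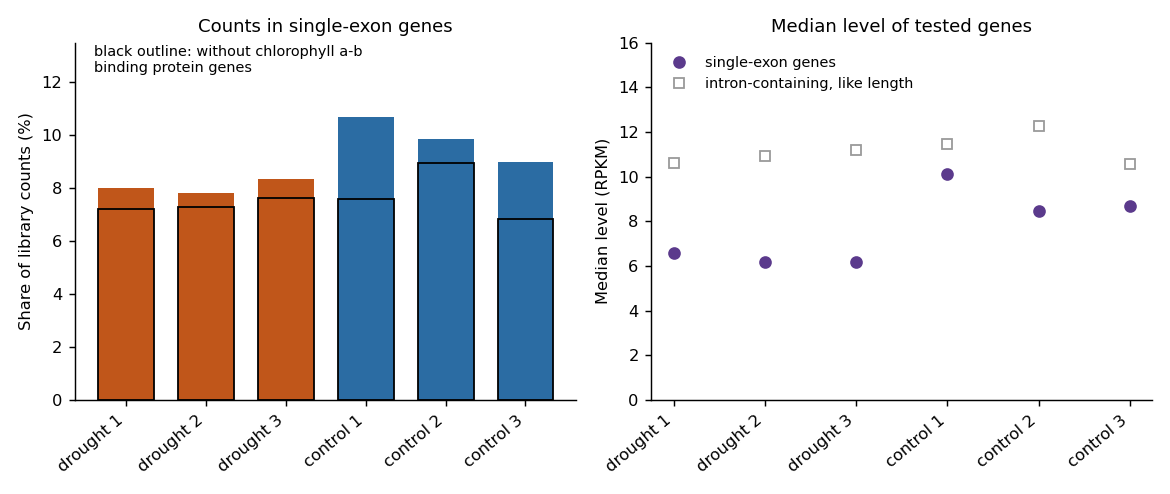
Left, share of each library's counts in single-exon genes (%), with the black outline giving the share without chlorophyll a-b binding protein genes; right, median level in RPKM (CPM per kilobase of gene length) of the tested single-exon genes (filled circles) and of intron-containing genes of like length (open squares), per library. The 3 drought libraries sit at 6.18 to 6.57 RPKM for single-exon genes, below the 3 control libraries at 8.46 to 10.1 RPKM.

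The level of the typical single-exon gene was lower in drought leaves, whereas that of intron-containing genes of like length was not apart. A gene was tested when its counts passed a filter on low counts, which 1828 of 2501 single-exon genes (73.1%) and 85.3% of intron-containing genes did. Among the tested members the median level was 6.57, 6.18 and 6.19 RPKM in drought libraries and 10.1, 8.46 and 8.67 RPKM in control libraries, without overlap. Intron-containing genes, weighted to the same lengths, had medians of 10.6, 10.9 and 11.2 RPKM in drought and 11.4, 12.3 and 10.6 RPKM in control, which overlapped. Averaged over control plants, the median single-exon gene stood at 9.84 RPKM and the intron-containing gene of like length at 12.2 RPKM, but at 9.71 RPKM when only whole-codon lengths were taken, an alternative added once the data had been looked at. The order in control thus turned with the choice of genes compared. It also turned with length: among tested genes, single-exon ones of under 300 bases had a control median of 25.8 RPKM against 8.93 RPKM for intron-containing ones, those of 300 to under 600 bases had 18.6 against 9.96 RPKM, and in the 5 longer classes single-exon genes were the lower, down to 2.88 against 12.1 RPKM at 1800 to under 2400 bases. Over all genes of these classes, untested ones included, the control medians were 2.22 against 1.84 RPKM under 300 bases and 4.88 against 2.28 RPKM at 300 to under 600 bases.

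At adjusted p under 0.05 with edgeR, 313 single-exon genes (17.1% of those tested) changed with drought, and most of them fell. Across all 16318 tested genes 13.4% changed, 5.31% higher and 8.08% lower. Of the single-exon genes 76 (4.16%) were higher, close to the background, and 237 (13.0%) were lower, above it, so that 24.3% of the called members were higher, against 37.8% among intron-containing genes of like length and 35.1% among those of like length and level. The single-exon genes were 11.2% of the genes tested, 18.0% of all lower calls and 8.78% of all higher calls. Without the adjustment, at p under 0.05, 172 were higher (9.41%, against 13.8% of all tested genes) and 455 lower (24.9%, against 17.7%).

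The lean was not limited to called genes. The median log2 fold change was -0.33 over tested single-exon genes, -0.06 over intron-containing genes of like length, -0.07 over those of whole-codon length and -0.03 over all genes tested. A log2 fold change below 0 was found in 62.0% of the members and in 53.2% of intron-containing genes of like length. Every drought library lay above every control library in 268 members (14.7%, background 19.9%), and below in 442 (24.2%, background 18.5%). Changes of 4-fold or more among the called genes were found in 39 members that rose (2.13% of those tested, background 1.56%) and 161 that fell (8.81%, background 4.46%). Scaling by library totals moved the median of all genes by 0.16 on the log2 scale, and the members then had 80 higher and 180 lower (30.8% higher). Intron-containing genes, here not weighted for length, had 55.7% higher calls, against 42.0% with the main scaling. The median of the members stayed 0.28 below that of all genes, against 0.30 with the main scaling.

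The number of members called moved with the plants included. Without drought replicate 1, 2 or 3, 14, 23 and 16 members were called higher and 53, 62 and 35 lower. Without control replicate 1 there were 18 higher and 75 lower, and without control replicate 2, the library that stood apart, 143 higher and 407 lower. Without control replicate 3 there were 79 higher and 270 lower, close to the counts with all plants. Over the 6 fits 19.4 to 31.4% of the called members were higher, against 39.4 to 50.2% of the called intron-containing genes. The intron-containing genes were here not weighted for length (42.0% higher with all plants). Of the 313 called members, 39 (12 higher and 27 lower) were called in the same direction in all 11 alternative fits.

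The lean varied with gene length. Of the called members under 300 bases 2 were higher and 18 lower, and the median log2 fold change of this class was -1.03. In the classes that start at 300, 600, 900 and 1200 bases, 22, 13, 14 and 12 were higher and 68, 55, 36 and 40 lower, with medians of -0.54, -0.53, -0.32 and -0.17. Members of 1800 to under 2400 bases went the other way, with 12 higher, 10 lower and a median of 0.21. Of those 12 higher genes, 6 encode PPR proteins. The longest members, of 2400 bases and over, had 1 higher and 10 lower. In intron-containing genes the medians of the same 7 classes ranged from -0.13 to 0.11, and single-exon genes had the lower median in 6 of 7 length classes and in 9 of 9 classes of expression level.

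**Figure D2:**
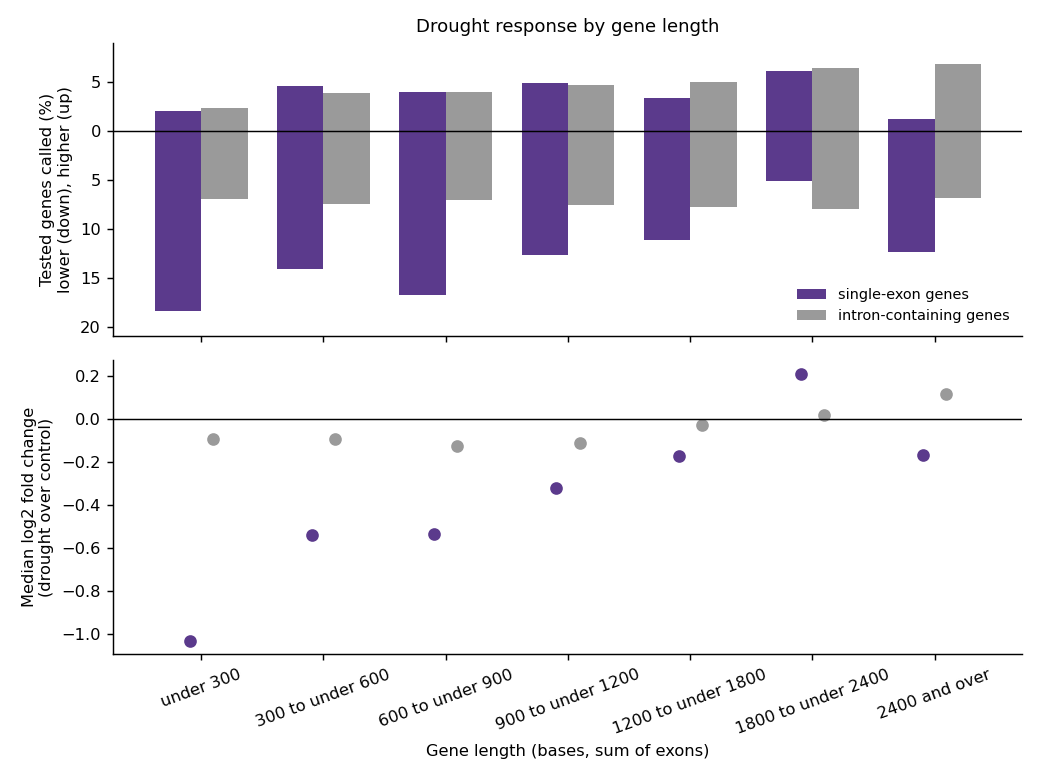
Upper panel, tested genes called higher (above 0) and lower (below 0) in drought, in % of each length class; lower panel, median log2 fold change, drought over control. Single-exon genes are purple and intron-containing genes grey. The share of lower single-exon genes is 18.4% under 300 bases and 5.08% at 1800 to under 2400 bases, against 6.94% and 8.01% in intron-containing genes.

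Genes with few intron bases resembled single-exon genes in part. The classes of intron bases given here were not matched for gene length or level. Just outside the rule, 315 tested genes held up to 100 intron bases, of which 20 (6.35%) were higher and 33 (10.5%) lower, with a median log2 fold change of -0.13. Their groups lay apart in both directions about equally often (18.4% higher, 17.8% lower), and 52.7% had a log2 fold change below 0, against 62.0% of the members. Above 100 and up to 200 intron bases the median was -0.31 (17 higher, 42 lower), and above 200 and up to 500 it was -0.28 (41 higher, 79 lower). Above 500 and up to 2000 intron bases it was -0.11, and above 2000 it was 0.06, with 484 higher and 500 lower. The medians thus lay below that of all genes up to 2000 intron bases, and the difference from single-exon genes was larger up to 100 intron bases than in the next 2 classes.

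**Figure D3:**
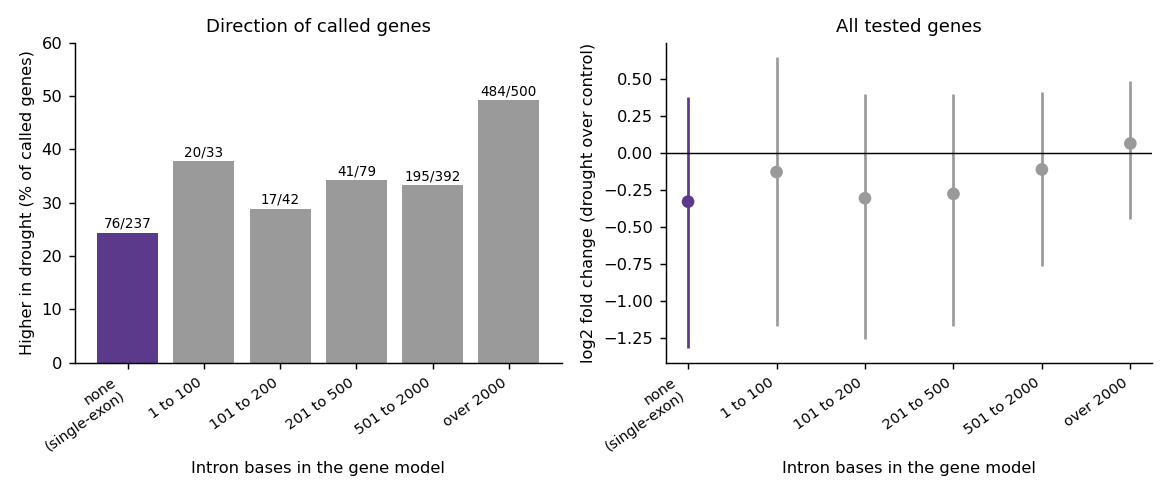
Left, share of called genes that were higher in drought (%) by the number of intron bases, with the counts higher/lower above each bar; right, median (point) and quartiles (line) of the log2 fold change, drought over control, over all tested genes of the class. Single-exon genes are purple. The median is -0.33 without introns, -0.13 up to 100 intron bases, -0.31 between 100 and 200 intron bases and 0.06 above 2000.

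Plants of the same group differed somewhat more in single-exon genes. The median standard deviation of log2(CPM + 1) between plants was 0.267 for the members and 0.227 for intron-containing genes of like length in drought, and 0.501 and 0.447 in control. Intron-containing genes of like length and level had 0.243 in drought and 0.454 in control. The spread of the members was the larger in 7 of 9 classes of level in drought and in 9 of 9 in control. In both classes control plants differed more than drought plants, and without control replicate 2 the spread of the members in control was 0.310.

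Functional descriptions were at hand for 526 members, among them 76 of the higher and 223 of the lower called genes. They come from the study's own lists of changed genes, so the counts of families below are no independent evidence of a direction, and most members outside those lists have no description. Families are given as higher and lower of those tested, counting only genes with a description. Of all 489 tested members with a description 76 were higher and 223 lower, which is the share to read beside a family. The 5.31% and 8.08% of all genes are not a like background for these counts. Per-plant values are CPM, with means ± SD (n = 3 plants each) where given.

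Some of the higher members are described as protectants or as calcium signalling proteins. ClCG05G018130 (chromosome 5, 30437304 to 30437774), a 17.5 kDa class II small heat shock protein, which holds unfolding proteins in solution, had 129, 404 and 221 CPM in drought plants, against 0.754, 0.243 and 1.13 CPM in control plants. That is 8.48 on the log2 fold scale (SE 0.75, adjusted p = 0.00369, edgeR). ClCG01G017300, a group 8 late embryogenesis abundant protein, a class of protectants made in drying tissue, had 33.3, 41.3 and 38.3 CPM in drought and 5.17, 2.09 and 4.34 CPM in control. The groups of both genes lay far apart, although the heat shock gene varied 3-fold among drought plants. ClCG08G015820, a calcium-binding EF-hand protein of 219 bases, averaged 127 ± 50.9 CPM in drought and 6.30 ± 1.04 CPM in control (log2 fold change 4.34, SE 0.37, adjusted p = 0.00349, edgeR). ClCG04G006440, CBL-interacting protein kinase 08, of a family that relays calcium signals from calcineurin B-like sensors, averaged 227 ± 17.7 CPM in drought and 50.8 ± 12.5 CPM in control.

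Among the other strongly higher members, ClCG02G008410, a CONSTANS-like zinc finger protein, had 122, 113 and 63.8 CPM in drought and 1.61, 1.41 and 6.54 CPM in control, with a log2 fold change of 4.97 (6.04 without control replicate 3). ClCG01G013020, a U-box protein, of a class of ubiquitin ligases, had 65.7, 63.4 and 30.6 CPM in drought and 3.77, 5.06 and 3.05 CPM in control. The third drought plant was the lowest for both. ClCG03G003590, described only as AtIII18x5-like, had 133, 82.1 and 35.2 CPM in drought, against 7 counts in 1 control library and 0 in the others. ClCG09G008550, of the plant-specific TIGR01615 family, had 25.1, 10.6 and 18.3 CPM in drought and 2 counts in all control libraries together, a ratio of 509 with a 95% exact binomial interval of 141 to 4207 that covers counting error only. ClCG07G017160, a glycine-rich protein, averaged 86.1 ± 11.4 CPM in drought and 12.1 ± 4.33 CPM in control (log2 fold change 2.83, SE 0.30, adjusted p = 0.00491, edgeR). The 9 genes named so far in this direction were called without any 1 library.

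**Figure D4:**
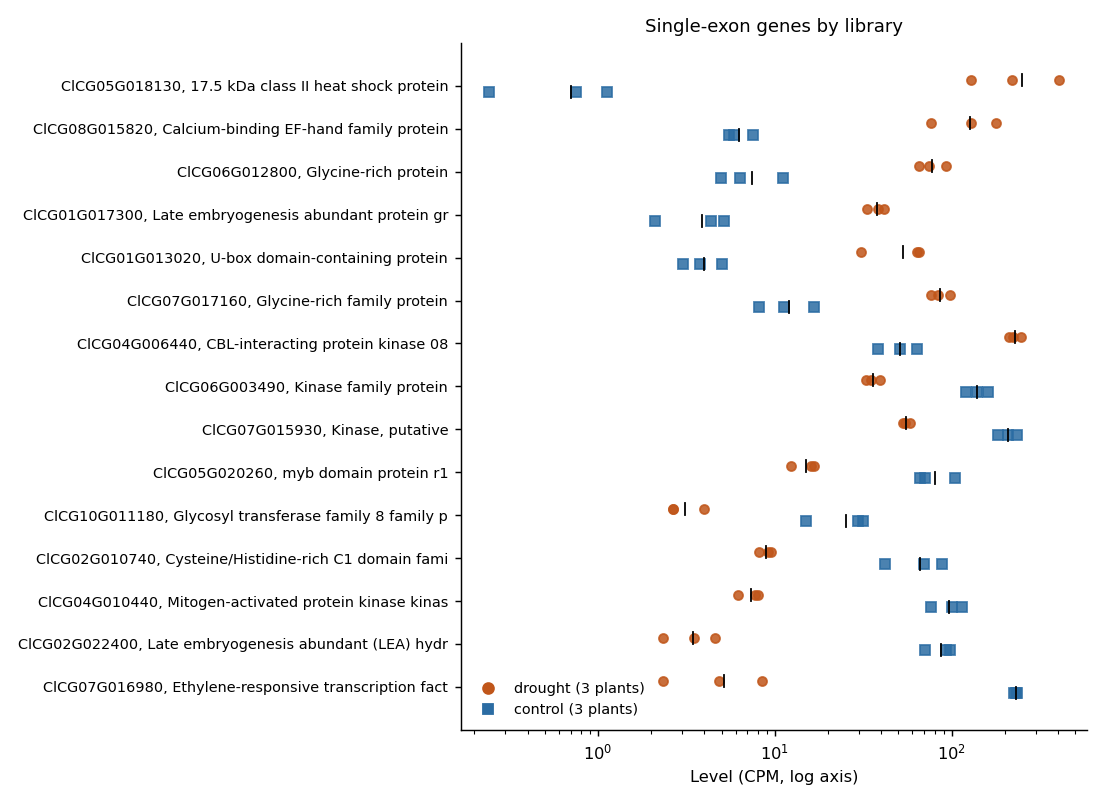
Level per plant in CPM on a log axis of 15 single-exon genes, with drought plants as orange circles above control plants as blue squares, and a black tick at each mean. The groups do not overlap in any of the 15 genes, of which 7 were higher in drought (upper rows) and 8 lower.

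Regulators of transcription with a description were mostly lower, and described members at large had 76 higher and 223 lower of 489 tested. Of 19 tested ERF and DREB factors, which bind ethylene- and dehydration-responsive promoter elements, 1 rose and 12 fell (median log2 fold change -2.55), and of 17 MYB, TCP, GRAS, Dof and bZIP factors 2 rose and 12 fell (median -2.42). Their intron-containing relatives with a description had 0 higher and 3 lower of 7, and 0 higher and 14 lower of 19. ClCG07G016980 (chromosome 7, 33557704 to 33558288), ERF 3, had 2.34, 8.42 and 4.83 CPM in drought and 233, 232 and 226 CPM in control, which is -5.47 on the log2 fold scale (SE 0.51, adjusted p = 0.00373, edgeR). Control plants were nearly alike, and drought plants spread over a low range. ERF 5 (ClCG07G014980) averaged 1.55 ± 0.269 CPM in drought and 9.11 ± 2.02 CPM in control, and ERF 13 (ClCG08G014650) had 3 counts in drought libraries and 63 to 108 counts in each control library. Both MYB R1 genes fell. ClCG05G020260 had 289, 409 and 349 counts in drought libraries and 1233, 1452 and 1843 counts in control libraries, whereas ClCG05G019570 had no count in drought and 24.3, 9.68 and 13.6 CPM in control, at least 366-fold lower when 3 counts over the drought group are taken as the floor.

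ClCG01G017540, a GRAS factor, had 2.51, 1.21 and 1.93 CPM in drought and 15.1, 9.73 and 14.7 CPM in control. VQ motif and sigma factor binding proteins, small partners of WRKY factors, had 0 higher and 4 lower of 5 tested, and of these sigma factor binding protein 1 (ClCG10G016220) had 25.7, 74.7 and 52.6 CPM in drought and 227, 208 and 153 CPM in control. The calls of ERF 5 and the GRAS factor were lost without drought replicate 3, that of ERF 13 without drought replicate 1 or 2 or control replicate 1, and that of sigma factor binding protein 1 without drought replicate 1 or 3 or control replicate 1, at adjusted p from edgeR of 0.0512 to 0.114. ERF 3 and both MYB R1 genes were called without any 1 library. Of the ERF and DREB factors 3 to 18 were called lower when 1 library was left out, of the MYB, TCP, GRAS, Dof and bZIP factors 3 to 13, and of the VQ and sigma factor binding proteins 0 to 4 (2 with library totals).

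Lower calls outnumbered higher calls among described kinases and calcium sensors, beside the higher CBL-interacting kinase and EF-hand genes. Of 28 tested single-exon kinases 3 rose and 17 fell (median log2 fold change -2.05), and of 20 calmodulin-like and EF-hand genes 2 rose, 9 fell and 9 were not called (median -1.99). Intron-containing kinases had 14 higher and 91 lower of 174, and intron-containing calmodulin-like genes 1 higher and 8 lower of 13. ClCG04G010440, a mitogen-activated protein kinase kinase, which phosphorylates MAP kinases in stress cascades, had 6.16, 7.77 and 8.09 CPM in drought and 76.5, 115 and 99.8 CPM in control. Its log2 fold change of -3.72 (SE 0.25, adjusted p = 0.00295, edgeR) held without any 1 library. ClCG06G003490 averaged 35.8 ± 3.25 CPM in drought and 140 ± 19.2 CPM in control, and ClCG07G015930, at 2631 bases the longest kinase named, 55.3 ± 2.54 and 208 ± 26.5 CPM in drought and control.

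A calmodulin-related gene (ClCG02G005880) had 27.5, 24.9 and 20.9 CPM in drought and 73.7, 72.7 and 61.5 CPM in control, and calfumirin-1 (ClCG05G019820) 27.4, 24.3 and 30.2 CPM in drought and 76.8, 161 and 80.1 CPM in control. Plants of the same group lay close together in both genes except control plant 2 for calfumirin-1. The call of the calmodulin-related gene was lost without drought replicate 3 (adjusted p = 0.0543, edgeR) and that of calfumirin-1 without drought replicate 1, 2 or 3 (0.0726 to 0.0742). Without 1 library, 4 to 22 of the kinases and 0 to 15 of the calmodulin-like genes were called lower.

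Described single-exon genes for cell wall and surface proteins were mostly lower. All 5 tested genes with a lipid-transfer name in their description were lower (median log2 fold change -6.99), a name of proteins that carry lipids to the cuticle and wall. So were 6 of 10 extensin-like and proline-rich proteins (median -2.26) and 3 of 4 chitinases and glucanases. Of the family 8 glycosyl transferases and of the C1 domain proteins 2 of 3 each were lower, and none of these families held a higher call. Described intron-containing lipid-transfer genes had 1 higher and 1 lower of 4. Extensin-like and proline-rich genes with introns had 2 higher and 4 lower of 8, and chitinases and glucanases 0 higher and 6 lower of 8. ClCG10G002870, of 381 bases, is described only by a superfamily of bifunctional inhibitors, lipid-transfer proteins and seed storage 2S albumins. It had 0.594, 0.567 and 1.84 CPM in drought and 324, 261 and 203 CPM in control. ClCG07G016400, a lipid transfer protein of 318 bases, had 1.91, 0.081 and 2.44 CPM in drought and 238, 139 and 184 CPM in control. Every control plant lay far above every drought plant in both genes. ClCG03G010980, a beta-1,3-glucanase that cleaves callose-type glucans, had 1, 5 and 0 counts in drought libraries and 661, 1879 and 639 counts in control libraries.

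ClCG02G022400 (chromosome 2, 36800055 to 36800690), a LEA hydroxyproline-rich glycoprotein, had 4.59, 3.48 and 2.34 CPM in drought and 97.6, 70.8 and 92.3 CPM in control (log2 fold change -4.64, SE 0.32, adjusted p = 0.00295, edgeR). Of the 6 tested members of this family 1 rose and 4 fell, although the name is shared with the late embryogenesis abundant proteins. ClCG08G006700, an extensin-like protein, averaged 0.445 ± 0.289 CPM in drought and 22.8 ± 13.7 CPM in control, and ClCG01G006080, a proline-rich extensin-like protein, 12.6 ± 2.71 CPM in drought and 35.1 ± 3.56 CPM in control. The groups did not overlap in these genes. ClCG10G011180, a family 8 glycosyl transferase, of a family that includes pectin-building enzymes, averaged 3.12 ± 0.765 CPM in drought and 25.4 ± 9.08 CPM in control, and ClCG02G010740, a C1 domain protein, 8.97 ± 0.689 and 66.6 ± 23.5 CPM in drought and control.

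ClCG10G009320, a Phi-1-like protein induced by phosphate in cultured tobacco cells, averaged 73.4 ± 10.9 CPM in drought and 505 ± 216 CPM in control. Its call and those of ClCG01G006080, ClCG07G016400 and ClCG08G006700 were lost when 1 of the drought replicates was left out, at adjusted p from edgeR of 0.0507 to 0.0728, and the other genes named here in the wall and surface families were called without any 1 library. Over the fits without 1 library, 2 to 5 lipid-transfer proteins, 1 to 8 extensin-like and proline-rich proteins and 1 to 4 chitinases and glucanases were called lower. So were 1 to 3 family 8 glycosyl transferases and 1 to 4 C1 domain proteins, of which 4 were tested without control replicate 3.

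No higher call was found among described single-exon enzymes of small-molecule glycosylation and wax synthesis. Of 7 tested UDP-glycosyltransferases, which attach sugars to hormones and secondary metabolites, 6 fell and none rose, against 3 higher and 7 lower of 14 intron-containing ones. ClCG02G006150 had 1.91, 1.34 and 1.93 CPM in drought and 27.9, 57.4 and 8.57 CPM in control, and its log2 fold change of -4.18 was -3.39 without control replicate 2. Of the 3 tested 3-ketoacyl-CoA synthases, which elongate the fatty acids of cuticular wax, 2 fell. ClCG06G010700 averaged 15.3 ± 4.23 CPM in drought and 73.1 ± 32.5 CPM in control, and ClCG02G020640 had 7.47, 5.55 and 4.69 CPM in drought and 61.1, 11.6 and 52.7 CPM in control. Control plant 2 was the lowest control plant in both synthases and the highest in the glycosyltransferase. The calls of these 3 genes were lost without each drought replicate in turn, and those of the synthases also without control replicate 1, at adjusted p from edgeR of up to 0.117. That of ClCG02G020640 was also lost without control replicate 3 (0.0505). Over the fits without 1 library 0 to 5 of the glycosyltransferases were called lower (3 with library totals) and 0 to 2 of the synthases.

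The abscisic acid (ABA) genes of the class moved in both directions. The 3 described single-exon ABA receptors, which inhibit type 2C phosphatases once ABA is bound, all fell. A PYR1 gene (ClCG10G022420) had 7.30, 7.49 and 3.31 CPM in drought and 123, 50.5 and 218 CPM in control, a second one (ClCG04G006740) had no count in drought and 48 to 343 counts in each control library, at least 261-fold lower, and PYL4 (ClCG07G004620) had 3 counts in drought and 592 to 3231 counts in each control library. Control plant 2 was the lowest control plant in all 3 receptors, at 50.5, 2.33 and 28.8 CPM. The 3 described intron-containing receptors fell too, with a median log2 fold change of -1.39. All 3 described NCED genes were single-exon. ClCG01G024680 had 29.0, 12.1 and 18.3 CPM in drought and 6.57, 5.64 and 2.88 CPM in control, and ClCG07G010550 had 28.7, 29.0 and 19.0 CPM in drought and 4.09, 11.8 and 5.30 CPM in control. ClCG03G006770 went the other way, with 0.340, 0.081 and 0.230 CPM in drought and 10.4, 16.1 and 2.20 CPM in control. In each of the 3 NCED genes the groups did not overlap. Their calls and that of ClCG04G006740 were lost in several fits with 1 plant fewer. With drought replicate 1 or 3 or control replicate 1 left out, none of the 4 was called, and without drought replicate 2 none of the NCED genes, at adjusted p from edgeR of 0.0510 to 0.117. The call of ClCG07G010550 was also lost without control replicate 3 (0.0770) and with scaling by library totals (0.0602). Over the fits without 1 library the log2 fold changes kept their sign. They were -11.4 to -10.4 for ClCG04G006740, -5.91 to -4.83 for ClCG03G006770, 1.60 to 2.24 for ClCG01G024680 and 1.57 to 2.45 for ClCG07G010550.

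No lower call was found among described PPR and CCCH zinc finger genes. PPR members, of 1122 to 3144 bases, had 8 higher and 0 lower of 22 tested, with a median log2 fold change of 1.25, and intron-containing PPR genes had 27 higher and 0 lower of 45, with a median of 1.14. ClCG01G006140 had 40.4, 38.3 and 35.9 CPM in drought and 16.3, 15.9 and 21.7 CPM in control, and ClCG10G018100, the longest at 3144 bases, had 10.2, 12.6 and 8.00 CPM in drought and 3.71, 3.94 and 2.54 CPM in control. The changes of these PPR genes were near 2- to 3-fold, without overlap of the groups. The 5 CCCH zinc finger genes, a class of RNA-binding regulators, all rose (median log2 fold change 2.67). The most abundant, ClCG03G015890, had 698, 589 and 538 CPM in drought and 91.3, 124 and 46.2 CPM in control, and ClCG05G017680 had 45.3, 44.1 and 54.0 CPM in drought and 7.54, 3.55 and 11.5 CPM in control. Without control replicate 1 none of these 4 genes was called (adjusted p from edgeR of 0.0515 to 0.0793). The calls of both PPR genes were also lost without each drought replicate in turn, and that of ClCG05G017680 without drought replicate 1 or 3, at adjusted p of 0.0512 to 0.105. Over the 6 fits that leave out 1 library, 0 to 13 PPR members and 0 to 5 CCCH members were called higher, and at most 1 PPR member lower.

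Smaller families gave few calls. The heat shock list had 3 higher and 0 lower of 5 tested, with ClCG01G010270, described as BCL-2-associated athanogene 5, among the higher. Its members summed to 495, 606 and 393 CPM in drought and 546, 484 and 507 CPM in control. Glycine-rich proteins had 5 higher and 1 lower of 7. Among these 5 was a cell wall structural protein (ClCG05G021410), with 178, 274 and 135 counts in drought and 0, 7 and 0 counts in control. It was called in 7 of 11 alternative fits. The late embryogenesis abundant and dehydrin group had 1 higher and 0 lower of 2. RING and U-box ubiquitin ligases had 1 higher and 6 lower of 16, EXO70 subunits of the exocyst, which tethers secretory vesicles, 0 higher and 2 lower of 4, glutaredoxins 0 higher and 1 lower of 4, SAUR proteins 0 higher and 1 lower of 2, and Phi-1-like proteins 0 higher and 2 lower of 2. F-box proteins, the target-binding parts of ubiquitin ligases, had 1 higher and 0 lower of 5, with a median log2 fold change of 1.21. The median was between -0.16 and -0.09 without drought replicate 1, 2 or 3 or control replicate 2. Those fits tested 6 F-box genes, so the set of genes also changed. Without control replicate 1 or 3, with 5 tested, it was 0.93 and 1.17.

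**Figure D5:**
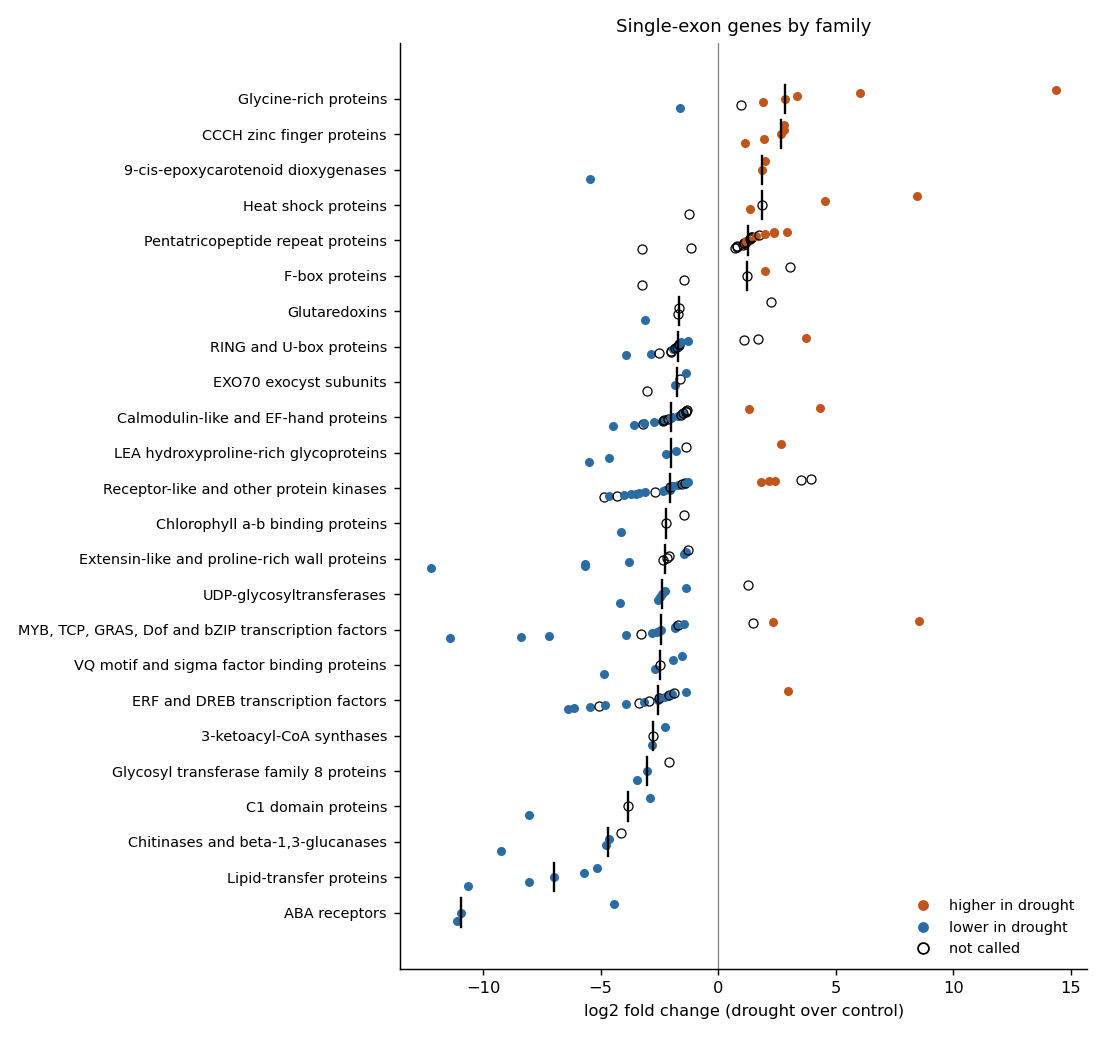
Log2 fold change, drought over control, of each tested single-exon gene in 24 families by description, with called genes in orange (higher) or blue (lower), uncalled genes open, and a black bar at the family median. Values beyond 8 in either direction belong mostly to genes with no or few counts in one group and depend on the model. All 5 CCCH genes lie right of 0 and all 5 lipid-transfer genes left of it.

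Some single-exon genes stood next to each other, and neighbours did not always move alike. There were 12 runs of at least 4 neighbouring single-exon genes. On chromosome 6 (25965464 to 26009700), 5 such genes held 3 glycine-rich proteins, all on the minus strand and all higher: ClCG06G012780 with 32.7, 25.8 and 25.4 CPM in drought and 11.8, 6.71 and 3.72 CPM in control, ClCG06G012800 with 92.6, 64.9 and 74.0 CPM in drought and 6.35, 11.1 and 4.96 CPM in control, and ClCG06G012810 with 107, 140 and 130 CPM in drought and no count in control. Near-identical copies could share reads, which was not tested. Of the other 2 genes of the run, ClCG06G012770 had 0, 9 and 15 counts in drought and 57, 6 and 21 counts in control, and neither was called.

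The longest run, 7 genes on chromosome 8 (28235415 to 28289631), held 4 described calmodulin and EF-hand genes with opposite changes. ClCG08G015820, given above, and calmodulin ClCG08G015810 (81.1 ± 16.6 CPM in drought, 33.0 ± 8.97 CPM in control) rose. Their neighbours ClCG08G015850, with 1138, 2116 and 2844 RPKM in drought and 4214, 8422 and 3281 RPKM in control, and ClCG08G015860, with 23.8, 15.1 and 17.3 RPKM in drought and 35.3, 78.6 and 26.6 RPKM in control, lay lower in every drought plant but were not called (adjusted p = 0.116 and 0.0977, edgeR). A gene between them and the higher pair, ClCG08G015830, was among the most abundant of all members and had 6817, 6613 and 9395 RPKM in drought and 6804, 9228 and 7505 RPKM in control. Its groups overlapped. The calls of ClCG06G012780 and ClCG08G015810 were lost without each drought replicate in turn, and that of ClCG08G015810 also without control replicate 1, at adjusted p from edgeR of 0.0659 to 0.114.

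The most abundant single-exon genes were a few short genes, and several of them differed widely among plants of one group. The chlorophyll a-b binding gene ClCG01G024370 had 6143, 4092 and 5832 CPM in drought and 20252, 6028 and 17538 CPM in control, and its neighbour ClCG01G024380 had 369, 140 and 442 CPM in drought and 9599, 934 and 6034 CPM in control. Control plant 2 was the lowest control plant in both and lay within the range of the drought plants in the first. ClCG01G024380 was called (log2 fold change -4.12, SE 0.95, adjusted p = 0.0338, edgeR) and ClCG01G024370 was not (adjusted p = 0.176). The call was lost without each drought replicate and without control replicate 1 or 3 (0.0521 to 0.126), and ClCG01G024370 was called without control replicate 2 (0.0111).

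ClCG01G015330, a gene of 363 bases with no description, had 13633, 13183 and 19124 RPKM in drought and 4098, 14922 and 7420 RPKM in control, and ClCG10G010360, of 234 bases and likewise without description, 7965, 14506 and 13600 RPKM in drought and 1758, 14849 and 1391 RPKM in control. Control plant 2 lay among the drought plants in the first gene and above them all in the second. In both, the other control plants were lower than every drought plant. Neither was called (adjusted p = 0.388 and 0.501, edgeR), and without control replicate 2 both were called higher (0.0343 and 0.00295). ClCG09G021860, a cysteine proteinase inhibitor of 348 bases, of a class that inhibits papain-like proteases, had 1723, 1399 and 2019 CPM in drought and 328, 444 and 621 CPM in control, so that here all control plants were apart from drought plants. It rose (log2 fold change 1.88, SE 0.38, adjusted p = 0.0233, edgeR), a call lost without any drought replicate in turn or control replicate 1 (0.0765 to 0.109).

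Transcripts for proteins known from seeds and dehydrating tissue were detected at low level in drought leaves, beside a more abundant dehydrin transcript. The seed dormancy protein ClCG05G020660 had 160, 125 and 40 counts in drought libraries and 0, 2 and 0 counts in control libraries, a ratio of 132 (95% exact binomial interval 36.3 to 1095, counting error only), and it was called (adjusted p = 0.0113, edgeR), though not without drought replicate 1 (0.0572). Oleosin (ClCG01G013390), the coat protein of oil bodies, had 36, 23 and 14 counts in drought and 0, 3 and 0 counts in control and was not called (adjusted p = 0.0544). Together the 2 described seed-named members summed to 8.32, 5.99 and 2.48 CPM in drought and 0.00, 0.24 and 0.00 CPM in control, and their part in the changes of the other genes was not tested. The cold dehydrin ClCG10G015940 had 607, 653 and 553 CPM in drought and 202, 390 and 261 CPM in control, without overlap but not called (adjusted p = 0.0667, edgeR), and without control replicate 2 it was called (0.00649).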

How the data were processed

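RNA was sequenced from leaves of 3 drought-stressed and 3 control plants. The authors deposited read counts per gene and library with gene positions and length; TopHat and HTSeq are named for this step in the paper's methods, but fastp, HISAT2 2.1.0, featureCounts and DESeq2 in the submitters' processing notes. Positions are those of the Charleston Gray annotation in the table. The deposited FPKM table and the authors' own fold changes and p-values were not used. Columns of drought libraries, prefixed TT1 in the table and DT in the labels, were matched by condition and replicate number.

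Counts were tested with edgeR 4.0.16 in R 4.3.3 (quasi-likelihood test, TMM scaling, filterByExpr at 10 counts and 15 counts in total, condition as the only term, two-sided). Benjamini-Hochberg adjustment ran over all 16318 tested genes, at a threshold of 0.05. The fit and its adjustment cover the whole table; DESeq2 1.42.0 was an alternative. CPM use TMM-scaled totals, and RPKM divide them by gene length in kilobases. Spread is the SD of log2(CPM + 1) within a group. Intron-containing genes of like length were weighted over 7 length bins to the lengths of the tested single-exon genes, and for like length and level also over 9 level bins. A group without counts was set to a floor of 3 counts, which covers counting error only. The fit was tested on simulated data.

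The single-exon rule, the 31 lists by words in descriptions and the rule for named genes were chosen with earlier results of these data known. The text draws on the members named by that rule: the 10 largest changes each way among called genes without overlap, up to 3 members of each list with the lowest adjusted p, the 5 most abundant in each group, genes the paper names, and called members of runs of at least 4. A part of them is given. Of the genes the paper names, ornithine decarboxylase (ClCG08G013990), which the paper reports as downregulated, did not pass the filter here. It had 7, 2 and 0 counts in drought libraries and 20, 76 and 3 counts in control libraries, and the groups overlapped. Uncalled neighbours in the 2 runs were added after their values were seen. No cause of the lower medians in drought was tested. No genome of this build was at hand, so no sequences are shown.

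Libraries with the same replicate number deviated together (correlations of 0.14, 0.42 and 0.12, each above 0.1), so the replicate block alternative treats them as pairs. No shared block is named in the labels or the paper, and the deviations of control replicate 3 were closer to those of drought replicate 1 (0.29).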

Additional observations from a re-analysis of the deposited data

How the results depend on the processing

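Lower calls outnumbered higher calls among single-exon genes, and their median log2 fold change stayed below 0, in all 11 alternative fits. Among intron-containing genes lower calls also outnumbered higher calls in most fits (1435 higher and 2013 lower with DESeq2). The exceptions were library totals (816 and 650) and the fit without drought replicate 3 (126 and 125). The median of the members minus that of intron-containing genes, not weighted for length, was -0.36 to -0.23 over the 11 fits. The counts themselves moved. When 1 library was left out, 14 to 143 members were called higher and 35 to 407 lower, 19.4 to 31.4% of the called were higher, and the median was -0.37 to -0.26. DESeq2 called 142 higher and 404 lower. With library totals 30.8% of the called were higher and the median was -0.15. With the replicate block, that is with paired libraries, 87 were higher and 269 lower, the median was -0.25, and 285 of the 313 calls were kept. In control, the median level of intron-containing genes of like length was 9.71 RPKM when only whole-codon lengths were taken, an alternative added after the data were seen. The median spread between control plants was 0.310 to 0.527 with 1 library left out, the lowest without control replicate 2. RLE scaling, no filter on low counts, a minimum length of 300 bases and removal of overlapping genes moved none of the 4 member values (calls each way, percent higher, median) beyond the limits set. Without the filter, 71 were higher and 230 lower. The cause of the shifts was not tested.

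With 3 plants a group, most single calls were lost without some libraries: 51 to 93 of 313 were kept without a drought replicate or control replicate 1, and 259 and 303 without control replicates 3 and 2.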
